A study of Mus musculus with 6 samples.

Results

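The pyruvate dehydrogenase complex, its inhibitory kinases and its activating phosphatases were followed in epididymal white adipose tissue (eWAT) of mice with cancer-associated cachexia (CAC). The members were taken by name: the kinases Pdk1, Pdk2, Pdk3 and Pdk4, the phosphatases Pdp1 and Pdp2, and the subunit genes Pdha1, Pdhb, Dlat and Pdhx, 10 of the 55039 genes listed. The mice were male C57BL/6 animals, 6 to 7 weeks old when the experiment began. CAC mice carried subcutaneous tumors of Lewis lung carcinoma (LLC) cells, a mouse lung cancer line, and CONT mice had received the PBS vehicle alone. Both groups were killed after 28 days, and no genetic alteration or drug was described for either. The labels give 3 libraries of poly(A) RNA per group, numbered within each group. The fat came from 6 mice, 3 in each group, and p-values measure the spread between these animals.

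Pyruvate dehydrogenase turns pyruvate, the end product of glycolysis, into acetyl-CoA inside the mitochondrion, a step that cannot be run backwards in animals. The kinases phosphorylate the alpha subunit of the first enzyme and switch the complex off, whereas the phosphatases remove these phosphates and switch it on again. In white fat the complex supplies acetyl-CoA for the tricarboxylic acid cycle and, through citrate, for fatty acid synthesis. Pdk4 is widely known as a kinase gene that is induced in fasting, by fatty acids and by glucocorticoids, and insulin represses it. These genes give amounts of mRNA only. The phosphorylation state of the complex and its activity were not measured in these libraries.

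The libraries held 15713794 to 20638492 counts in CONT and 22829269 to 25926425 in CAC, and levels are given as CPM, counts scaled to the TMM-adjusted library total, where 1 CPM stood for 11.2 to 26.5 reads. CONT replicate 1 stood apart: 30.2% of its counts came from the mitochondrial genome, against 3.89% to 5.04% in the other 5 libraries. Values without it are given for the members and for each list of genes. The 9 adipocyte markers were detected in every library, and their summed level was 23261 to 53142 CPM in CONT and 35867 to 48923 CPM in CAC, with CONT replicate 1 the highest. In CONT replicates 2 and 3 the sum was 23261 and 27754 CPM, below each CAC library. Macrophage, skeletal muscle, brown adipocyte, mesothelial and endothelial markers overlapped between the groups in their summed levels. For macrophage and endothelial markers the overlap came from CONT replicate 1, at 725 and 1390 CPM. Macrophage markers summed to 2044 and 2062 CPM in CONT replicates 2 and 3, above the 879 to 1625 CPM of CAC. Endothelial markers summed to 830 and 923 CPM in these 2 libraries, below the 1085 to 1342 CPM of CAC. B cell markers summed to 32.5 to 85.7 CPM in CONT and 7.25 to 18.3 CPM in CAC, and fibroblast markers to 2143 to 2537 CPM and 1360 to 2070 CPM. The 6 fibroblast markers did not all go the same way. In 4 of them each CAC library was below the CONT range, and Pdgfra overlapped. Dcn was higher in each CAC library, at 780 to 973 CPM in CONT and 1099 to 1498 CPM in CAC. The 5 markers of the epididymis, the organ beside this fat pad, summed to 201, 2.67 and 7558 CPM in CONT replicates 1 to 3. CONT replicate 3 thus held by far the most, and CONT replicate 2 was near the CAC libraries. In CAC the sum was at most 0.566 CPM, with Crisp1 and Lcn5 at 0 in each library. The part of epididymal RNA and of the other cell types in the results was not tested. In such bulk tissue, fewer cells of a type and less RNA per cell cannot be told apart.

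Most of the genes that restrain or build the complex had a higher mean level in tumor-bearing mice, and the differences were largest for 2 kinases. Pdk4 was 6.87-fold and Pdk2 3.08-fold higher in CAC, while the phosphatases and subunits differed by at most 1.75-fold and Pdk3 was the sole member with a lower mean. All 10 genes passed edgeR's filter on low counts. By edgeR's quasi-likelihood test with Benjamini-Hochberg adjustment over 17296 genes, 0 of the 10 had an adjusted p under 0.05, as did 0 genes in all (0.0%). At an unadjusted p under 0.05 there were 5 of the 10 (Pdk2, Pdk4, Pdp2, Dlat and Pdhx), all higher in CAC (13.3% of all genes tested reached this level, 6.31% as higher and 6.95% as lower). They were the same 5 without CONT replicate 1, where 15.6% of 19459 genes reached it. In 6 of the 10, these 5 and Pdha1, each CAC library lay above each CONT library. Groups did not overlap in 22.5% of all genes, with CAC higher in 11.8% and lower in 10.7%. The log2 fold change was above 0 in 9 of the 10 and in 45.9% of all genes, and its median was 0.63 over the members and -0.06 over all genes. DESeq2, the tool of the study, placed 3 of the 10 (Pdk2, Pdk4 and Dlat) below an adjusted p of 0.05, where it called 2.91% of 33212 genes. Without CONT replicate 1 it placed 5 of the 10, and 6.24% of 33709 genes. These shares are over all genes with a DESeq2 p-value, low-count genes included. They are therefore not shares of the same genes as those of edgeR, and all 10 members passed edgeR's filter.

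**Figure D1:**
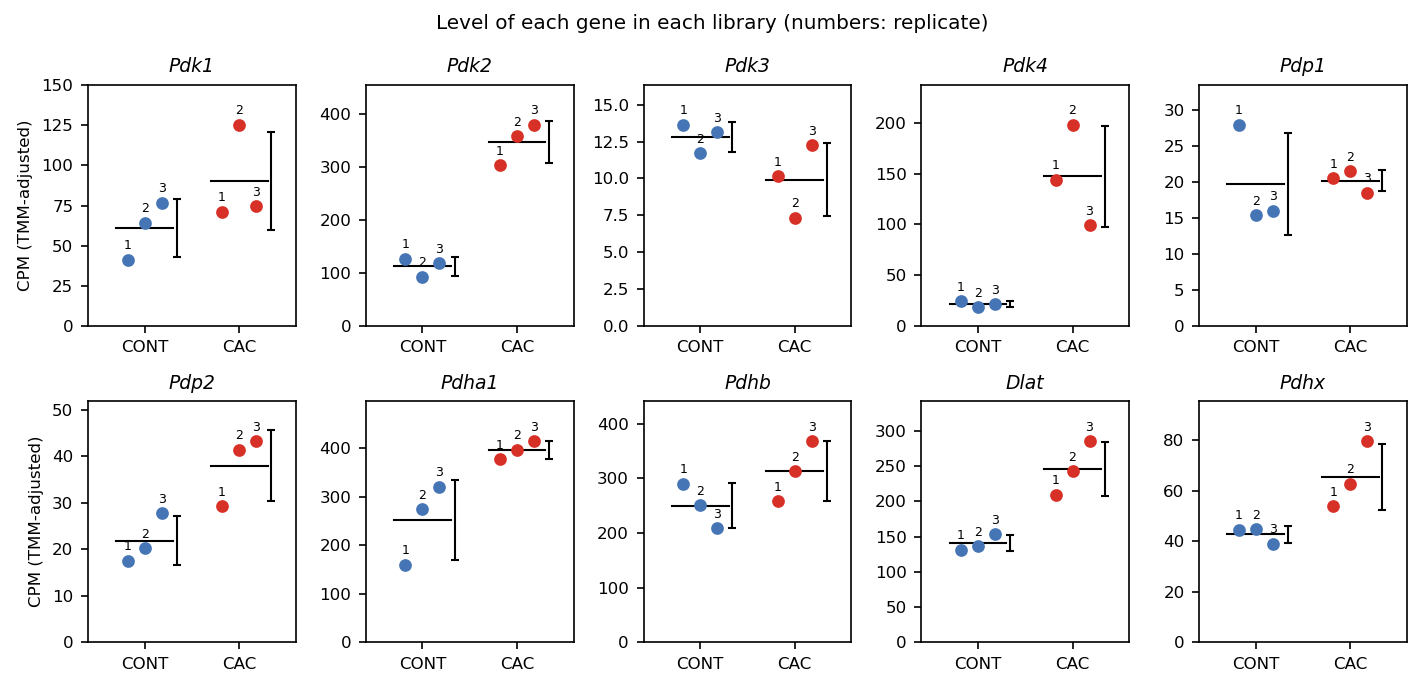
Level of each of the 10 genes in each library, in CPM adjusted by TMM, on linear axes from 0. Points are libraries with their replicate number, horizontal lines are group means and the bars beside them are ± 1 SD (n = 3). The groups are well separated for Pdk2 and Pdk4, closer together for Pdp2, Pdha1, Dlat and Pdhx, and overlapping for Pdk1, Pdk3, Pdp1 and Pdhb.

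Pdk4 (ENSMUSG00000019577), the kinase gene of fasting, showed the largest difference. It lies on the minus strand of chromosome 6 from 5483351 to 5496309 (GRCm38), and its longest coding transcript has 11 exons. It was covered by 274, 427 and 468 reads in CONT replicates 1 to 3 and by 3509, 4907 and 2630 reads in CAC replicates 1 to 3. After TMM adjustment its level was 24.4, 18.7 and 21.1 CPM in CONT and 144, 198 and 99.3 CPM in CAC. The CONT libraries lay close together, and the CAC libraries, of which replicate 2 was the highest and replicate 3 the lowest, were all far above them. The log2 fold change was 2.78 (standard error, SE, 0.30, unadjusted p = 5.1e-05, adjusted p = 0.127, edgeR), which put Pdk4 at position 6 of the genes tested when ordered by p. With 1 library left out, it ran from 2.52 without CAC replicate 2 to 3.01 without CAC replicate 3, and it was 2.90 without CONT replicate 1. DESeq2 gave 2.80 (SE 0.34, adjusted p = 3.1e-13). Over 25 alternative settings its adjusted p was lowest in DESeq2 without CAC replicate 3 (1.3e-19) and highest in edgeR without CAC replicate 2 (0.622), and 9 settings placed it under 0.05.

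Pdk2 (ENSMUSG00000038967), the kinase found in most tissues and the most abundant of the 4 here, lies on the minus strand of chromosome 11 from 95026258 to 95041354. Its level was 127, 92.9 and 118 CPM in CONT and 303, 358 and 379 CPM in CAC. All CAC libraries were well above all CONT libraries, and they differed little among themselves. The means were 113 ± 17.7 CPM and 347 ± 39.5 CPM (SD, n = 3), a log2 fold change of 1.62 (SE 0.23, unadjusted p = 2.3e-04, adjusted p = 0.157, edgeR). Pdk2 was at position 25 by p. Leaving out 1 library gave 1.505 (without CONT replicate 2) to 1.75 (without CAC replicate 1), and 1.73 without CONT replicate 1. DESeq2 gave an adjusted p of 2.7e-09, and over all alternatives it ran from 1.3e-12 to 0.684, under 0.05 in 9 of 25. An antisense gene, Gm11513, overlaps Pdk2. Whether counting used the strand was not given in the sources used here, but Gm11513 held 10 reads over the 6 libraries and Pdk2 held 32437.

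The other two kinases had overlapping groups. Pdk1, which is known for its response to hypoxia, was at 41.4, 64.4 and 76.7 CPM in CONT and at 71.2, 125 and 74.5 CPM in CAC. Only CAC replicate 2 lay above the CONT range. Its log2 fold change was 0.57 (SE 0.33, adjusted p = 0.478, edgeR), and it was 0.27 without CAC replicate 2 and 0.37 without CONT replicate 1. Pdk3, an X-linked kinase gene with low expression in this fat, was at 13.6, 11.7 and 13.1 CPM in CONT and at 10.1, 7.35 and 12.3 CPM in CAC. Its mean was lower in CAC, but CAC replicate 3 lay within the CONT range. The log2 fold change of Pdk3 was -0.37 (SE 0.28, adjusted p = 0.581, edgeR), and it was -0.31 without CONT replicate 1, -0.18 without CAC replicate 2 and -0.54 without CAC replicate 3. The standard errors of Pdk1 and Pdk3 were close to that of Pdk4.

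The sequences before the starts of the 2 kinase genes with the largest differences are shown beside that of Pdk3, the kinase gene with a lower mean, so that members at both ends of the range can be read side by side. The letters are from the RefSeq promoter table of GRCm38.p6, which had 11 windows of 300 bases for 9 of the 10 members (Pdp1 had none). Each runs 5′ to 3′ on the strand of the gene and ends before the first base of the gene in the deposited annotation, and capitals mark CpG. Pdk4 at chr6:5496310-5496528, minus strand, 219 bases with 6 CpG, Pdk2 at chr11:95041372-95041621, minus strand, 250 bases with 19 CpG, and Pdk3 at chrX:93832202-93832400, minus strand, 199 bases with 22 CpG, read:
Pdk4: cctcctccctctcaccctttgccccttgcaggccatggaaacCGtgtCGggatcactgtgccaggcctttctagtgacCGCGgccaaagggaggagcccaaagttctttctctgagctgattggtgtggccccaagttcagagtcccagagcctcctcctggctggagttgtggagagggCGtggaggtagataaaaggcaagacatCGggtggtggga
Pdk2: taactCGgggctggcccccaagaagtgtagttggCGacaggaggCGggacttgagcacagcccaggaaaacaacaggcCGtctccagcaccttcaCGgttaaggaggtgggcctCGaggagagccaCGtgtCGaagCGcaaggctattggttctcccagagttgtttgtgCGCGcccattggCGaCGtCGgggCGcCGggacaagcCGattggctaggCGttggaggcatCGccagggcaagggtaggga
Pdk3: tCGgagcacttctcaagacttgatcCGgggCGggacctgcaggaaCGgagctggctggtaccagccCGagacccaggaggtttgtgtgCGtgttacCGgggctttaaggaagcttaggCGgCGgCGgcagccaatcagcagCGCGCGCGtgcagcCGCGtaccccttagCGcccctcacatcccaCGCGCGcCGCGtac
In the whole windows of 300 bases, 250 before and 50 after the RefSeq start, Pdk4 had 12 CpG and 60.7% G and C, Pdk2 25 CpG and 64.7% at the start shown, and Pdk3 35 CpG and 68.0%, where the median of 32851 mouse promoters was 7 CpG and 52.7%. Pdk2 has another window in the table, around a start inside the gene, with 13 CpG and 57.7%, so its CpG count depends on the start that is used. Motifs were searched on both strands of all windows. The FOXO core GTAAACA (in 3.65% of all promoters), the nuclear receptor half-site AGGTCA (16.3%) and the STAT site TTCNNNGAA (8.30%) were in 0 of the 11 windows. The SP1 core GGGCGG (35.7%) was in windows of 6 members (Dlat, Pdhb, Pdhx, Pdk1, Pdk3 and Pdp2) and in neither the Pdk2 nor the Pdk4 windows. These are matches of letters within short windows and say nothing of binding or of distant elements.

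The 2 phosphatase genes behaved differently from each other. Pdp2, the phosphatase that does not need calcium, was at 17.6, 20.3 and 27.7 CPM in CONT and at 29.3, 41.4 and 43.2 CPM in CAC. Its groups did not overlap, although CAC replicate 1 was only just above CONT replicate 3. The log2 fold change was 0.80 (SE 0.25, unadjusted p = 0.0179, adjusted p = 0.295, edgeR), and 0.67 without CONT replicate 1. Pdp1, the calcium-activated phosphatase, was at 27.9, 15.4 and 15.96 CPM in CONT and at 20.5, 21.4 and 18.5 CPM in CAC. CONT replicate 1, the library rich in mitochondrial RNA, was above and the other CONT libraries below all CAC libraries. Its log2 fold change was therefore near 0 with all libraries, at 0.03 (SE 0.29), 0.38 without CONT replicate 1 and -0.12 without CONT replicate 2, and it was below 0 in 6 of 25 alternatives, among them upper-quartile normalization.

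Of the subunits, Dlat separated the groups most clearly. Dlat, the acetyltransferase at the core of the complex, was at 131, 137 and 153 CPM in CONT and at 209, 242 and 285 CPM in CAC. Its log2 fold change was 0.81 (SE 0.21, unadjusted p = 0.00655, adjusted p = 0.255, edgeR), from 0.70 to 0.96 with 1 library left out. DESeq2 gave an adjusted p of 0.0031, with a range over all alternatives from 5.3e-05 to 0.684. Pdhx, which anchors the third enzyme of the complex to this core, was at 44.5, 44.9 and 39.0 CPM in CONT and at 53.8, 62.7 and 79.6 CPM in CAC, a log2 fold change of 0.61 (SE 0.20, adjusted p = 0.302, edgeR). It was 0.65 without CONT replicate 1 and 0.46 without CAC replicate 3, and for Dlat it was 0.77 without CONT replicate 1. Both core genes had their highest level in CAC replicate 3 and their lowest CAC level in replicate 1, the reverse of what Pdk4 showed for replicate 3.

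The 2 genes of the first enzyme, the pyruvate-decarboxylating part, differed less clearly. Pdha1, the alpha subunit that the kinases phosphorylate, was at 160, 274 and 320 CPM in CONT and at 376, 396 and 414 CPM in CAC. No CAC library fell within the CONT range, but CONT replicate 1 was far below the other two. The log2 fold change of Pdha1 was 0.65 (SE 0.30, adjusted p = 0.408, edgeR) and 0.43 without CONT replicate 1, more than 1.5 times smaller. Pdhb, the beta subunit, was at 290, 251 and 209 CPM in CONT and at 259, 313 and 368 CPM in CAC, with overlapping groups and a log2 fold change of 0.33 (SE 0.24, adjusted p = 0.578, edgeR). It was 0.46 without CONT replicate 1 and 0.20 without CAC replicate 3. In CONT replicate 1 the beta subunit was thus at its CONT maximum and the alpha subunit at its minimum. Map3k15 overlaps Pdha1 on the opposite strand and held 314 reads against 45065. Pdha2, the testis form of the alpha subunit, held 157 reads in CONT replicate 2, 220 in CAC replicate 3 and at most 1 in each of the others, and it did not pass the filter on low counts.

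**Figure D2:**
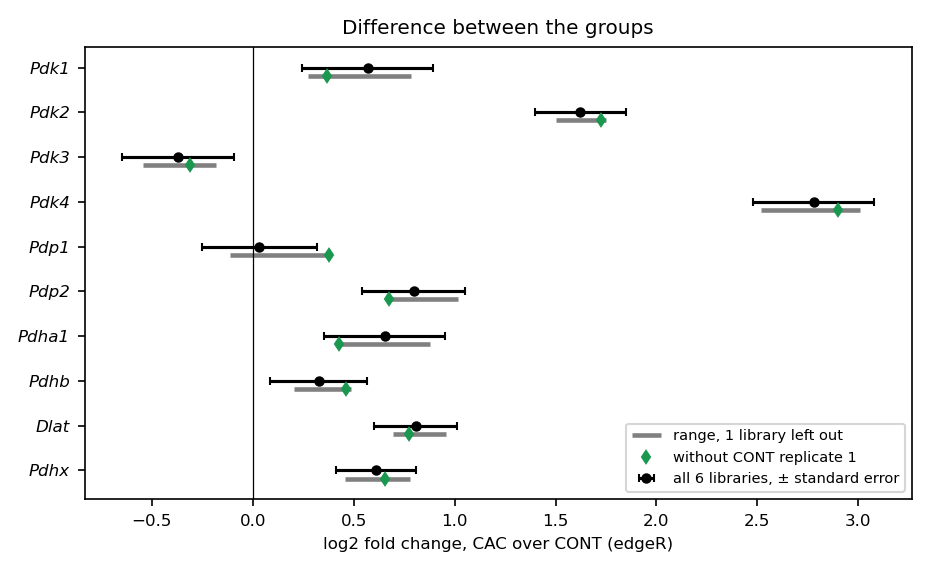
Log2 fold change of each gene, CAC over CONT, from edgeR. Black points and bars are the estimate from all 6 libraries ± 1 standard error, grey lines span the 6 fits that each left out 1 library, and green diamonds are the fit without CONT replicate 1. Pdk2 and Pdk4 lie to the right of the other 8 in all of these fits, and Pdp1 is the only gene whose grey line crosses 0.

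Deposited FPKM values, which divide counts by gene length, allow levels to be compared between genes as far as that length matches the transcripts present. The length was 3861 bases for Pdhb and 7779 for Pdk1, whose longest coding transcripts have 1513 and 5185. For Pdk4 it was 3511 against 3484, and for Pdp2 both were 5692. The part of these lengths in the order of genes, and in the ratios and shares below, was not tested. In CONT the order of mean levels was Pdha1 (54.0 ± 17.4 FPKM, SD, n = 3), Pdhb (52.1 ± 8.81), Pdk2 (28.7 ± 4.71), Dlat (23.1 ± 1.83), Pdhx (8.76 ± 0.681), Pdk1 (6.28 ± 1.82), Pdk4 (4.91 ± 0.701), Pdk3 (4.03 ± 0.349), Pdp1 (3.53 ± 1.30) and Pdp2 (3.09 ± 0.733). Pdha1 and Pdhb overlapped in their libraries, as did Pdk2 and Dlat and each neighboring pair from Pdk1 to Pdp2. In CAC the order was Pdk2 (89.4 ± 9.65 FPKM), Pdha1 (86.5 ± 3.65), Pdhb (66.3 ± 11.2), Dlat (41.0 ± 6.14), Pdk4 (34.2 ± 11.4), Pdhx (13.6 ± 2.66), Pdk1 (9.48 ± 3.12), Pdp2 (5.45 ± 1.05), Pdp1 (3.65 ± 0.272) and Pdk3 (3.16 ± 0.793). Here the overlapping neighbors were Pdk2 and Pdha1, Dlat and Pdk4, Pdhx and Pdk1, and Pdp1 and Pdk3. The FPKM ratio of Pdk2 to its substrate gene Pdha1 was 0.936, 0.400 and 0.436 in CONT and 0.950, 1.07 and 1.08 in CAC, so that CONT replicate 1 was close to the CAC libraries.

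The balance of kinases, phosphatases and substrate was compared within each library, where library scaling cancels. The 4 kinases together reached 46.8, 37.9 and 46.9 FPKM in CONT and 123, 153 and 132 FPKM in CAC. The 2 phosphatases together reached 7.53, 5.57 and 6.75 FPKM in CONT and 7.996, 9.77 and 9.53 FPKM in CAC. Both sums were higher in each CAC library, the kinase sum by far the more. The ratio of kinase to phosphatase FPKM was 6.22, 6.82 and 6.94 in CONT and 15.4, 15.7 and 13.9 in CAC, a difference of 1.17 on the log2 scale (p = 0.1 by an exact two-sided permutation test, which cannot go lower with 3 against 3, and 0.15 adjusted over 6 such measures). With 1 library left out this difference stayed between 1.12 and 1.23. It did not rest on Pdk4 alone: the ratio without Pdk4 was 5.47, 6.05 and 6.22 in CONT and 11.2, 11.0 and 11.5 in CAC. Relative to Pdha1, kinase FPKM was 1.35, 0.648 and 0.681 in CONT and 1.49, 1.78 and 1.47 in CAC, with CONT replicate 1 nearest to the CAC libraries (log2 difference 0.90, exact permutation p = 0.1, adjusted 0.15, and a log2 difference of 1.24 without CONT replicate 1).

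The make-up of the kinase transcripts also differed. Pdk4 made up 12.1%, 11.2% and 10.3% of the summed kinase FPKM in CONT and 27.4%, 29.9% and 17.4% in CAC, a difference of 13.7 percentage points (exact permutation p = 0.1, adjusted 0.15). Pdk2 held most of the kinase FPKM in both groups, at 61.8% to 69.5% in CONT and 60.0% to 73.8% in CAC, and these ranges overlapped. Pdk3 made up 8.80% to 9.61% in CONT and 1.52% to 2.95% in CAC, and Pdk1 9.21% to 17.4% and 5.89% to 8.55%. Thus Pdk1 and Pdk3 held smaller shares in each CAC library, and the share of Pdk2 did not separate the groups. The ratio of Pdk4 to Pdk2 was 0.173, 0.181 and 0.161 in CONT and 0.429, 0.499 and 0.236 in CAC (log2 difference 1.104, exact permutation p = 0.1, adjusted 0.15). Ratios of Pdp1 to Pdp2 and of Pdha1 to Pdhb overlapped between the groups (log2 differences -0.72 and 0.39, exact permutation p = 0.2 and 0.6, adjusted 0.24 and 0.6). The log2 difference for Pdp1 to Pdp2 was -0.30 without CONT replicate 1 and -1.03 without CONT replicate 3, and that for Pdha1 to Pdhb turned to -0.022 without CONT replicate 1 and was 0.72 without CONT replicate 3.

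**Figure D3:**
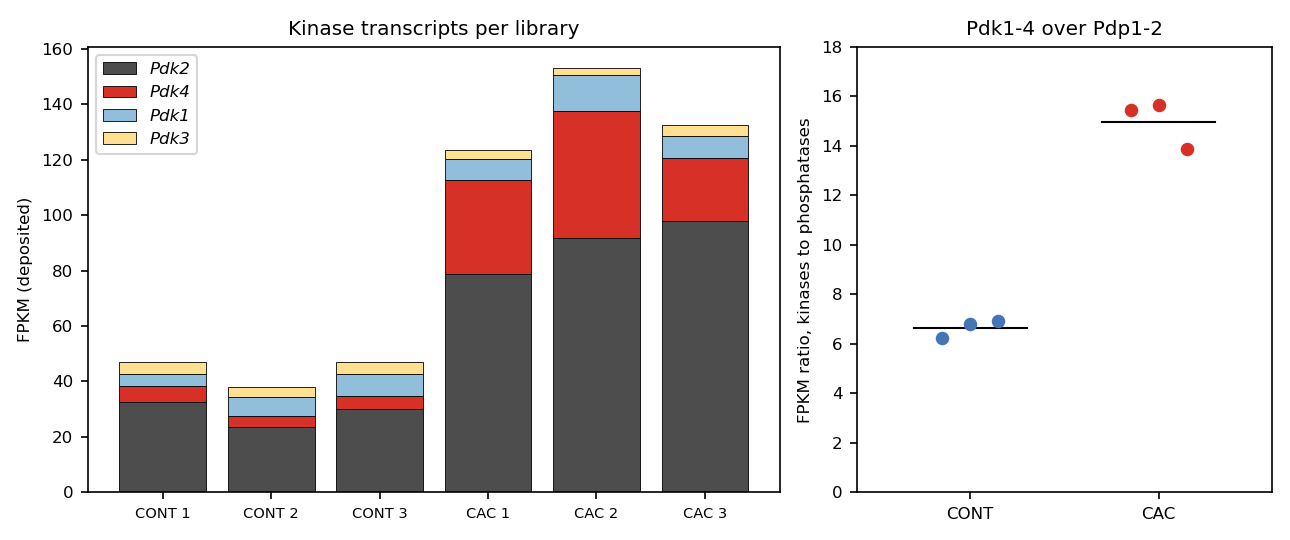
Left, deposited FPKM of the 4 kinase genes in each library, stacked on a linear axis from 0. Right, ratio of summed kinase FPKM to summed phosphatase FPKM, with points for libraries and lines at the geometric mean of each group. The stacks reach 37.9 to 46.9 FPKM in CONT and 123 to 153 FPKM in CAC, and the ratios 6.22 to 6.94 and 13.9 to 15.7.

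Levels relative to the summed adipocyte markers separated the 2 kinases from the remaining members. Per 1000 CPM of the summed adipocyte markers, Pdk4 was at 0.460, 0.804 and 0.762 CPM in CONT and at 2.95, 5.52 and 2.55 CPM in CAC. Pdk2 was at 2.39, 3.99 and 4.25 CPM in CONT and at 6.19, 9.97 and 9.74 CPM in CAC. For both, the CAC libraries still lay above all CONT libraries. The other 8 members overlapped between the groups on this scale, including Pdp2, Pdha1, Dlat and Pdhx, whose CPM had not. Fabp4 and Cfd made up most of the marker sum in each library, at 3233 to 22460 CPM and 6453 to 22183 CPM. Their log2 fold changes had opposite signs, -0.79 (SE 0.80) and 0.83 (SE 0.54, edgeR). Whether the split among members holds with other adipocyte markers was not tested. The 7 markers of skeletal muscle, where Pdk2 and Pdk4 are abundant, summed to 8.32 to 46.0 CPM in CONT and 10.8 to 47.8 CPM in CAC, highest in replicate 1 of either group. Acta1, the skeletal muscle actin, made up 39.0 and 40.1 CPM of these highest sums. Myh4, a fast myosin heavy chain, was the only one of the 7 whose groups did not overlap, at 0.892, 0.613 and 0.0452 CPM in CONT and at 2.30, 2.42 and 2.98 CPM in CAC (log2 fold change 2.35, SE 0.88, unadjusted p = 0.0332, adjusted p = 0.339, edgeR). The part of muscle RNA in the levels of Pdk2 and Pdk4 was not tested. The 4 brown adipocyte markers summed to 16.1 to 31.4 CPM in CONT and 16.2 to 103 CPM in CAC, highest in CAC replicate 3, where Pdk4 was at its lowest CAC level.

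Other genes of the complex and of pyruvate use were read from lists. Dld, the third enzyme of the complex, shared with related complexes, was at 207, 172 and 184 CPM in CONT and at 246, 264 and 310 CPM in CAC, a log2 fold change of 0.54 (SE 0.20, unadjusted p = 0.0345, adjusted p = 0.344, edgeR). Pdpr, a regulatory subunit of the phosphatase, had a log2 fold change of 1.28 with an unadjusted p of 0.0728, and CONT replicate 1, at 9.27 CPM, lay far below the other CONT libraries at 49.7 and 54.6 CPM. All CAC libraries, at 75.8, 107 and 93.6 CPM, were above the CONT range. Without CONT replicate 1 the log2 fold change of Pdpr was 0.83 (SE 0.19, unadjusted p = 0.00724, adjusted p = 0.233, edgeR), and that of Dld 0.63. Of the 3 other genes of the complex, the third being Pdha2, 1 was higher at an unadjusted p under 0.05 with all libraries, where Pdha2 was not tested, and 2 without CONT replicate 1, where it was and the median was 0.63. Of 15 genes of pyruvate supply and its other fates, 3 had an unadjusted p under 0.05 as higher and 3 as lower, with a median log2 fold change of -0.00. Without CONT replicate 1, 3 were higher and 2 lower, and the median was 0.05. Higher were Gpt2, the mitochondrial alanine aminotransferase (1.44), Pcx, the pyruvate carboxylase (0.97), and Me2, a mitochondrial malic enzyme (0.61). Lower were Gpt, the cytosolic alanine aminotransferase (-1.07), Me1, the cytosolic malic enzyme that yields NADPH (-1.03), and Pklr (-3.59), which is named after its values were seen and rests on at most 15.5 CPM in any library. The carrier genes Mpc1 and Mpc2, which bring pyruvate into the mitochondrion, had log2 fold changes of -0.11 and -0.07 with overlapping groups, and Ldha, the lactate dehydrogenase gene, one of -0.00. None of the 3 had a stable direction: without CAC replicate 2 they were 0.05, 0.10 and 0.24, and without CAC replicate 3 Mpc2 and Ldha were -0.27 and -0.30.

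The alanine aminotransferases, which exchange pyruvate and alanine, differed in opposite directions. Gpt2 was at 265, 232 and 303 CPM in CONT and at 722, 890 and 558 CPM in CAC (adjusted p = 0.215, edgeR). Gpt was at 234, 141 and 127 CPM in CONT and at 109, 57.4 and 71.7 CPM in CAC (adjusted p = 0.299, edgeR). The mitochondrial form was higher and the cytosolic form lower in all 3 CAC libraries than in any CONT library.

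Among 9 genes that use or export acetyl-CoA, 2 were higher and 3 lower at an unadjusted p under 0.05, and the median was -0.12. Without CONT replicate 1, 2 were higher and 4 lower, with a median of -0.48. Acacb, the mitochondrial acetyl-CoA carboxylase, was at 123, 187 and 279 CPM in CONT and at 919, 1339 and 1088 CPM in CAC, and Crat, the carnitine acetyltransferase, had a log2 fold change of 0.85. Acly, which splits citrate in the cytosol, Acss2, which activates acetate there, and Slc25a1, the citrate carrier, had log2 fold changes of -1.40, -1.31 and -0.63. The values of Acly and Acss2 rested in part on CONT replicate 2, without which they were -0.89 and -0.79, and they were -1.74 and -1.63 without CONT replicate 1. With 1 library left out, Acly had an unadjusted p under 0.05 in 1 of 6 fits of edgeR's quasi-likelihood model, Acss2 in 3 and Slc25a1 in 2. In each of these 3 lower genes, all CAC libraries were below the CONT range.

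The related mitochondrial dehydrogenases include a second kinase and phosphatase pair, Bckdk and Ppm1k, which act on the branched-chain ketoacid dehydrogenase as the Pdk and Pdp genes do on pyruvate dehydrogenase. Ppm1k, the phosphatase, was at 15.3 to 17.6 CPM in CONT and at 36.9, 46.1 and 40.3 CPM in CAC, a log2 fold change of 1.34 (SE 0.18, unadjusted p = 1.8e-04, adjusted p = 0.142, edgeR). Bckdk, the kinase, was at 113, 58.3 and 66.7 CPM in CONT and at 70.4, 96.2 and 86.6 CPM in CAC, with overlapping groups. Its log2 fold change was 0.09, from -0.08 without CONT replicate 2 to 0.45 without CONT replicate 1. The FPKM ratio of Bckdk to Ppm1k was 10.4, 6.22 and 6.80 in CONT and 3.11, 3.40 and 3.50 in CAC. In this pair the kinase to phosphatase ratio was thus lower in each CAC library, whereas for pyruvate dehydrogenase it was higher. Over the 9 genes of this list, 4 were higher (Ppm1k, Bckdha, Dhtkd1 and Dlst) and 1 lower (Ogdhl, with overlapping groups) at an unadjusted p under 0.05, with a median of 0.55. Without CONT replicate 1, 6 were higher and 1 lower, with a median of 0.93. Ogdhl had a log2 fold change of -2.08, which was -1.13 without CONT replicate 2. Of 12 genes for the lipoate and thiamine cofactors, 0 were higher and 1 lower by this measure with a median of 0.06. In the fit without CONT replicate 1, 3 were higher and 0 lower, and the median was 0.22.

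Of 14 regulators of the kinase genes, 2 had an unadjusted p under 0.05, a share close to the 13.3% of all genes tested. They were the transcription factor genes Foxo1 (log2 fold change 0.90, standard error 0.24) and Foxo3 (0.97, standard error 0.27), and both were higher in each CAC library. Their adjusted p were 0.266 and 0.273 by edgeR's quasi-likelihood test. The median over the list was 0.30. Leaving out CONT replicate 1 gave 3 higher and 0 lower, with a median of 0.27. Nr3c1, the glucocorticoid receptor gene, was at -0.16, Pparg at 0.09, and Ppara at 1.90 with a standard error of 0.81 and overlapping groups. The sign turned for Nr3c1 without CAC replicate 3 (0.05) and for Pparg without CAC replicate 2 (-0.07). Of 11 genes known to respond to fatty acids, as Pdk4 does, 10 passed the filter on low counts (Cpt1b did not), and 4 were higher at an unadjusted p under 0.05 and 0 lower, with a median of 0.63. Leaving out CONT replicate 1 gave 3 higher and 0 lower and a median of 0.58. Among the 4 were Slc25a20, the acylcarnitine carrier (0.93), Ucp3, a mitochondrial carrier (0.78), and Acadm, an acyl-CoA dehydrogenase (0.71). Angptl4 and Cpt1a, other genes of this list, had log2 fold changes of 0.60 and -0.72 with overlapping groups, and Plin2 one of -0.10. The value of Angptl4 was -0.04 without CAC replicate 1, that of Cpt1a -0.35 without CONT replicate 3, and that of Plin2 0.08 without CAC replicate 2. None of the listed genes had an adjusted p under 0.05 in edgeR's quasi-likelihood test.

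**Figure D4:**
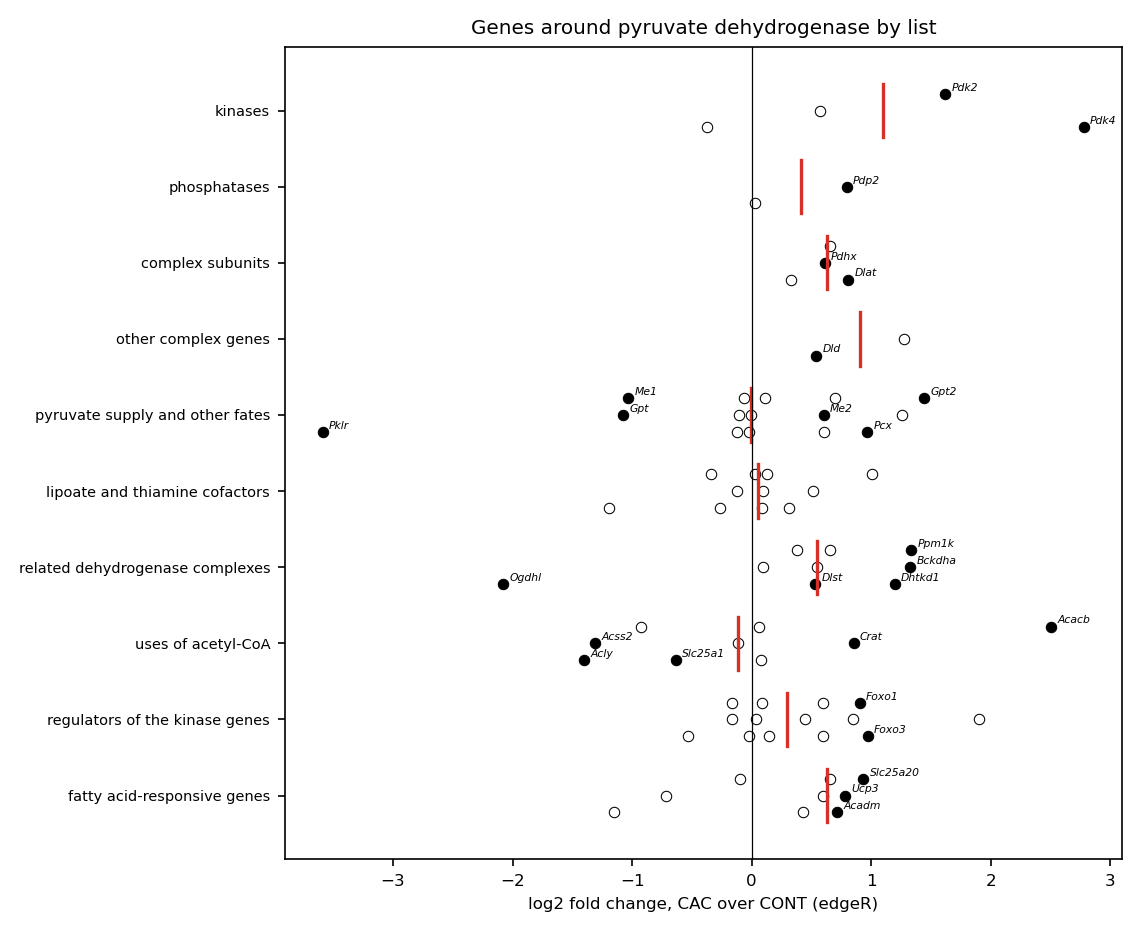
Log2 fold change, CAC over CONT, from edgeR for the tested genes of the lists except 2 that are not shown, with 1 line of points per list. Filled points with names have an unadjusted p under 0.05, open points do not, and red bars are medians of the whole lists. Pdk4 and Acacb lie farthest to the right, and the lists of pyruvate fates and acetyl-CoA use have points on both sides of 0.

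The genes whose pattern over the 6 libraries was nearest to that of Pdk4 were found by the root mean square (rms) difference of mean-centered log2 CPM. Ddit4, an inhibitor of mTOR signaling that is known as a stress gene, was the nearest (rms 0.29, Pearson's r 0.98 over 6 libraries), with 57.4, 49.2 and 64.7 CPM in CONT and 344, 507 and 418 CPM in CAC. Ddit4 was highest in CAC replicate 2, as Pdk4 was, but its lowest CAC level was in replicate 1. Fkbp5, which encodes a co-chaperone of the glucocorticoid receptor, also lay near (rms 0.35, r 0.97), at 120, 88.9 and 136 CPM in CONT and 663, 606 and 622 CPM in CAC. Farther off, but still within the nearest 5, were 4833411C07Rik, a processed transcript (rms 0.39, r 0.96), and 2010106E10Rik (rms 0.45, r 0.98), which stayed at or below 0.178 CPM in CONT and between 1.27 and 2.02 CPM in CAC. These likenesses rest mainly on the difference between the groups, and the points share library depth and scaling, so they are a description.

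**Figure D5:**
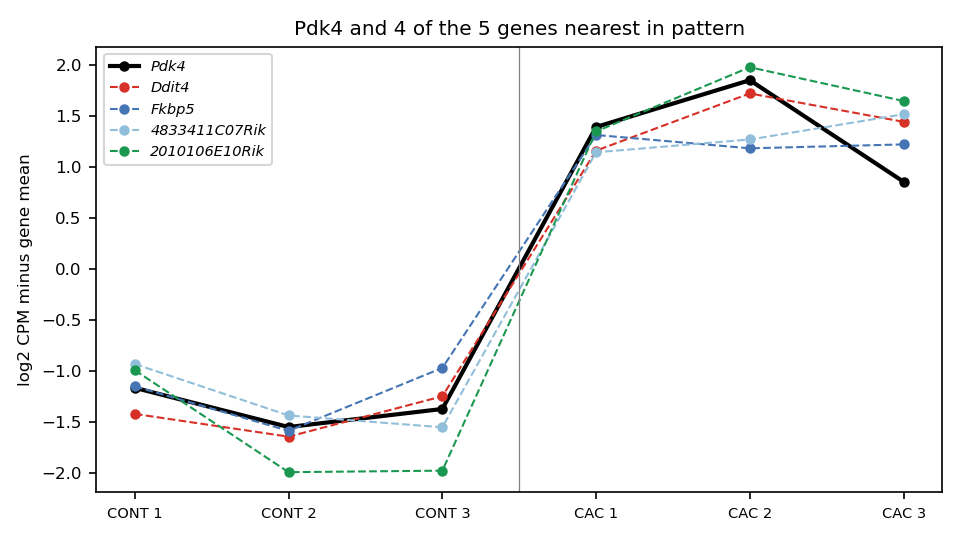
Log2 CPM of Pdk4 and of 4 of the 5 genes nearest to it in pattern, each minus its own mean over the 6 libraries. Lines join the values of 1 gene across libraries, which have no order. All 5 genes lie below 0 in CONT and above 0 in CAC, and Pdk4 is the only one of them with its lowest CAC level in replicate 3.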

How the data were processed

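Messenger RNA of eWAT was sequenced from 3 CONT and 3 CAC libraries, grouped and numbered by the deposited labels. The authors cleaned reads with in-house Perl scripts and used HISAT2 2.0.5 and the mouse genome of Ensembl release 94. The labels' processing notes name featureCounts 1.5.0-p3. The raw counts per gene were deposited without normalization. The deposited FPKM values divide the authors' counts by gene length and a scaled library total. Alignment and counting were not repeated. Strand use in counting was not given in the sources used here, and reads of near-identical copies could be split among them.

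Counts were tested in R 4.3.3 with edgeR 4.0.16 (TMM, filterByExpr, robust quasi-likelihood F test, condition as the only term, Benjamini-Hochberg adjustment over all genes tested). A call was an adjusted p under 0.05. CPM values use TMM-adjusted totals. Spread between mice was large (common dispersion 0.265). Ratios were taken on FPKM within a library and compared with exact two-sided permutation tests, 6 in 1 family. Alternatives were RLE and upper-quartile normalization, omission of mitochondrial genes, no filter, at least 10 counts per library, a replicate block, leaving out single libraries, non-robust and likelihood ratio tests, voom with quality weights and limma 3.58.1 on log2(FPKM + 1) and log2(FPKM + 0.1) for genes with FPKM of at least 0.5 in 3 libraries, and DESeq2 1.42.0. Offsets for length and GC content, levels per adipocyte marker CPM, ratios outside the 6 and shares of kinases other than Pdk4 were chosen after seeing the data.

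The members and lists were chosen with earlier results of these data known. Genes named were all members, from each list the 5 or fewer with the smallest unadjusted p under 0.05 (or the single smallest p), and the 5 genes nearest in pattern to the member with the largest difference. Pklr, Pdpr, Pdha2, Bckdk, Mpc1, Mpc2, Ldha, Nr3c1, Pparg, Ppara, Angptl4, Cpt1a, Cpt1b, Plin2, Acta1, Myh4, Crisp1, Lcn5, Fabp4, Cfd, Dcn, Pdgfra, Gm11513 and Map3k15 were named outside this rule, after their values were seen. Results for 3 genes that the rule names are not reported here. All 10 members had the same GRCm38 coordinates in the deposited table and in GENCODE M21. No 2 libraries of a group were copies (chi-square over genes divided by its degrees of freedom, 66.7 to 398).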

Additional observations from a re-analysis of the deposited data

How the results depend on the processing

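Pdk2, Pdk4, Pdp2, Pdha1, Dlat, Pdhx, Pdk1 and Pdhb had positive and Pdk3 negative log2 fold changes in all 25 alternatives. Pdp1 turned below 0 in 6: -0.00058 with upper-quartile normalization, -0.12 and -0.09 in edgeR without CONT replicates 2 and 3, -0.0030 without CAC replicate 2, and -0.11 and -0.072 in DESeq2 without CONT replicates 2 and 3, while edgeR without CONT replicate 1 gave 0.38. The ratio of Pdha1 to Pdhb turned to -0.022 (log2) without CONT replicate 1 and reached 0.72 without CONT replicate 3. Genes with an adjusted p under 0.05 numbered 0 in edgeR's quasi-likelihood test with all libraries, 396 in the likelihood ratio test, 953 in voom, 5 and 6 on FPKM with pseudocounts of 1 and 0.1, and 965 in DESeq2. With 1 library left out DESeq2 called 2102, 623 and 888 (CONT replicates 1 to 3) and 1506, 696 and 615 (CAC replicates 1 to 3), and edgeR 0 each time. Members among them numbered 2 in the likelihood ratio test, 3 in voom and 3 in DESeq2 (3 to 5 with 1 library left out). An unadjusted p under 0.05 was reached by 2294 genes and 5 members in edgeR, 1384 to 3032 genes and 3 to 5 members with 1 library left out, 4884 genes and 8 members in voom, and in DESeq2 with 1 library left out 2664 (CAC replicate 2) to 4453 genes (CONT replicate 1; 3632 for CAC replicate 1) and 5 to 8 members. The cause of these differences between tests was not tested. With the replicate number as a block, 1 gene and 0 members passed, and 4 members and 1992 of 17296 genes had an unadjusted p under 0.05. Same-numbered libraries deviated together in 1 of 3 numbers (correlations 0.31, -0.15 and -0.22), so the numbers were not read as pairs. Genes named by the rule other than Pdp1 kept their direction in all alternatives. With offsets for length and GC content, 1370 of 2122 genes at an unadjusted p under 0.05 were higher in CAC (64.6%, against 47.6% without them), and 6 members, all higher, reached that level.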
